A study of Mus musculus with 24 samples.

Results

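The genes described here make up the folding and degradation machinery of the endoplasmic reticulum. A list of 42 gene symbols in 4 classes chose them, namely 16 chaperones and folding helpers, 10 disulfide isomerases, 12 genes of endoplasmic reticulum-associated degradation (ERAD) and 4 stress sensors and their effectors. Of these, 41 had a probe on the array, 77 probes in all, and 37 passed the filter on dim probes among 12027 genes tested. Every listed gene with a probe was taken whatever its values, but the list itself was chosen with earlier results of these data known. The same holds for the other lists set beside it below.

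Pituitary RNA of 24 mice was hybridised to Illumina expression arrays, with 6 arrays in each group. The groups were Cga-deficient males, wild-type males, Cga-deficient females and wild-type females, all aged 8 weeks, of the strain labelled Mixed C57Bl6j 129S2SvPas. The wild types were littermates of the mutants, and the construction of the Cga allele was not stated in the labels. Cga encodes the common alpha subunit of the glycoprotein hormones.

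Hormones and receptors enter the endoplasmic reticulum unfolded. Chaperones hold them, disulfide isomerases join their cysteines, and lectins read their sugar chains. Chains that fail are drawn back through the membrane and destroyed by ERAD. When unfolded chains accumulate, the sensors encoded by Ern1, Eif2ak3 and Atf6 start the unfolded protein response, in which XBP1 and ATF6 raise transcription of the folding genes, and secretory cells such as those of the pituitary depend on it.

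XBP1 and ATF6 are known to act through the endoplasmic reticulum stress element, ERSE, which is CCAAT and CCACG with 9 bases of any kind between them, and a shorter form, ERSE-II, which is ATTGG and CCACG with 1 base of any kind between them. Both strands of the 250 bases upstream of each start site were searched in the RefSeq promoter table (GRCm38.p6), which held 35 of the 42 members at 43 start sites. The promoters of Derl3, Creld2, Pdia6 and Hspa5 are shown because these are the genes with the largest mean difference between the genotypes among those holding either motif. Capitals mark the fixed letters of ERSE, the other bases are in lower case, and all 4 windows read 5′ to 3′ on the gene's strand, which is the plus strand.
Derl3, chr10:75893148-75893397: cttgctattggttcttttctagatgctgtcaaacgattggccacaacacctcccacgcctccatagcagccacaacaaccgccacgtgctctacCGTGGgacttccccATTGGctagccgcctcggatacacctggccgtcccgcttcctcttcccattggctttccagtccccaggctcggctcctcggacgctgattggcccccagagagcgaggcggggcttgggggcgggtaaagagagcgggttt
Creld2, chr15:88819396-88819645: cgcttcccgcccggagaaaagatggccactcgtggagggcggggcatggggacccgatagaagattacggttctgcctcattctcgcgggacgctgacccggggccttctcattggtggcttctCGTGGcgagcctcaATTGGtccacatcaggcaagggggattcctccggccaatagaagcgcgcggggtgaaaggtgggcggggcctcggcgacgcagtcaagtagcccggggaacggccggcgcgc
Pdia6, chr12:17266339-17266588: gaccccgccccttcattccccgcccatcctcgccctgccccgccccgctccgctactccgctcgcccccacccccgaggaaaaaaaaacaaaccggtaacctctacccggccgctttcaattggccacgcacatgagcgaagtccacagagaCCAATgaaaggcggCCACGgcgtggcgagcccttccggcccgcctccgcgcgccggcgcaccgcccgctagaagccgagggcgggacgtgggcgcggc
Hspa5, chr2:34771840-34772089: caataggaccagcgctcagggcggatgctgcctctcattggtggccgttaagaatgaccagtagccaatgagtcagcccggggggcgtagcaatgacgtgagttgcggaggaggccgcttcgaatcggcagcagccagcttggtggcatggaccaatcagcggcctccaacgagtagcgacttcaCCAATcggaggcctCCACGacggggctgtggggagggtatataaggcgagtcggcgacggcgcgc

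In Pdia6 and Hspa5 the element lay on the gene's strand, and in Derl3 and Creld2 on the opposite strand, where the capitals read as its reverse complement. Its last base lay 47 bases before the start site in Hspa5, 80 in Pdia6, 108 in Creld2 and 138 in Derl3. ERSE was found in the windows of 9 members, which were these 4 with Calr, Hsp90b1, Canx, Dnajc3 and Syvn1, and ERSE-II in that of Herpud1. In Hsp90b1 it occurred at 2 places. ERSE or ERSE-II was thus present in 10 of the 43 member promoters (23.3%), against 47 of all 32851 promoters of this length (0.143%), the members included. These shares were not tested. By class, 6 of 13 chaperone genes, 1 of 9 disulfide isomerase genes, 3 of 10 ERAD genes and 0 of 3 sensor genes in the table held one. The 2 motifs share the letters CCACG, and ATTGG is CCAAT on the other strand. A further motif, UPRE, TGACGTGG, was found in Vcp, Txndc5 and Txndc11, and in 0.563% of all promoters. A match describes these letters only, and binding was not measured.

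**Figure D1:**
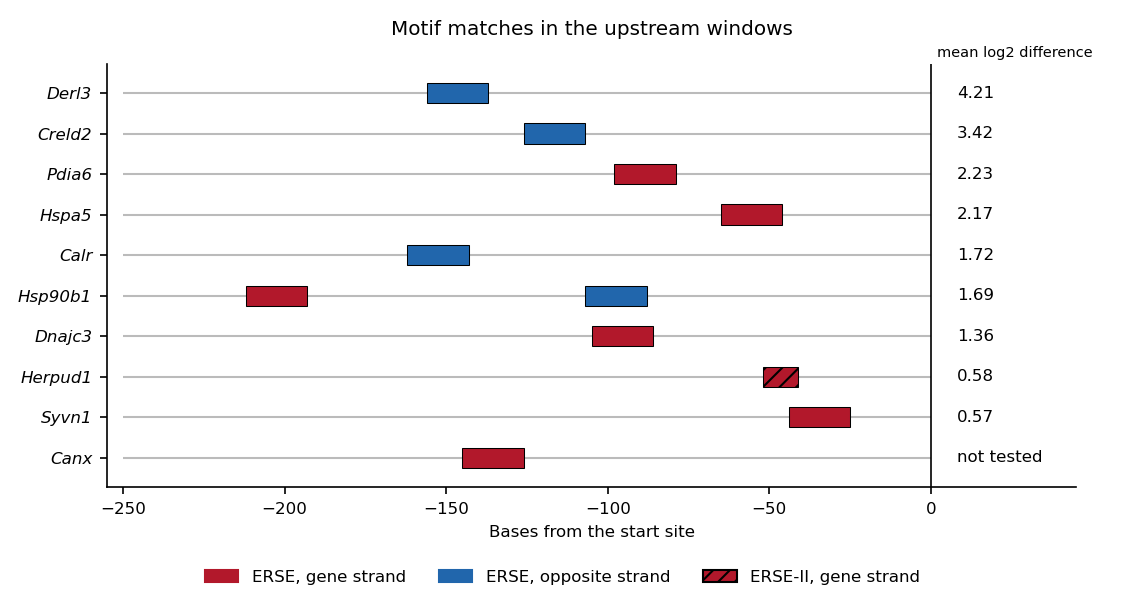
Motif matches in the 250 bases upstream of the start site (x axis, bases from the start site) for each member with ERSE or ERSE-II. Red and blue boxes are ERSE on the gene's strand and on the opposite strand, the hatched box is ERSE-II, and the number on the right is the gene's log2 difference, mutant minus wild type, averaged over the sexes. The matches lay between 212 and 26 bases before the start, and the 9 tested genes shown were all higher in mutants.

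Each value is a background-corrected, quantile-normalized log2 intensity of 1 probe, and levels of different genes are not compared because probes differ in brightness. The tissue's identity was clear from Gh, Prl and Pomc, with group means between 14.40 and 15.05 log2 in all groups. The probe of Cga, whose place relative to the mutation was not stated, gave 12.41 ± 0.16 in mutant males and 14.77 ± 0.09 in wild-type males, and 12.68 ± 0.27 in mutant females and 14.78 ± 0.10 in wild-type females (SD, n = 6 each). Probes detected at p under 0.05 made up 47.05 to 48.99% in mutant males, 39.72 to 43.05% in wild-type males, 47.27 to 50.77% in mutant females and 43.94 to 46.41% in wild-type females. Raw background split the arrays into 12 lower and 12 higher, with 3 arrays of every group in each. The lower ones were replicates 1 to 3 of each group and the higher ones replicates 4 to 6, so the split follows the order of the sample numbers. The labels name no batch. No 2 arrays were identical.

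Most of the folding and degradation genes were higher in mutants of both sexes. In males, 29 of the 37 tested members were higher at an adjusted p under 0.05 (limma), 1 was lower and 7 were not called, where 25.0% of all tested genes were higher and 26.5% lower. In females, 28 were higher, 5 lower and 4 not called, against 22.8% of all genes higher and 25.5% lower. The same 28 genes were higher in both sexes, where 16.2% of all genes were. By the fitted difference 15 members were at least 2-fold higher in each sex, against 5.23% of all genes in males and 4.82% in females. Of these, Manf and Erp44 were undetected in wild-type males and have only bounds under 2-fold there, which leaves 13 members in males. The median log2 difference over the 37 members was 0.79 in males and 0.75 in females, beside -0.01 and -0.03 over all tested genes.

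Of the 37, 5 genes (Derl3, Manf, Erp44, Atf6 and Hspa13) were not detected on every array, and those that passed the filter through the brighter group had to differ. Among the 32 members detected on all 24 arrays, 25 were higher and 1 lower in males, and 25 higher and 5 lower in females. In all 9166 such genes, 21.9% were higher and 27.7% lower in males, and 21.0% higher and 26.6% lower in females. Within the 12 arrays of lower background, 26 members were called in males and 26 in females. Within the 12 of higher background these counts were 28 and 27. They pool both directions, and the 28 include Hspa13, which was called lower there. The shares of all genes called within these arrays are not given, so the counts cannot be set against them. Markers of other cell types moved with the genotype: 6 of 6 tested thyrotrope markers and 8 of 8 tested macrophage markers were higher in both sexes, while 3 of 5 lactotrope and 3 of 5 somatotrope markers were lower in males and 5 and 4 of 5 in females. The somatotrope marker Dlk1 was higher in both sexes, and of 6 gonadotrope markers 1 was higher and 3 lower in males and 2 higher and 2 lower in females. The summed linear intensity of the thyrotrope markers was 39670 to 41920 in mutant males and 22610 to 28440 in wild-type males, and 40760 to 44980 in mutant females and 13260 to 21940 in wild-type females. That of the macrophage markers was 8174 to 14110 in mutant males and 3010 to 4752 in wild-type males, and 6532 to 10000 in mutant females and 3616 to 5767 in wild-type females. Lactotrope markers summed to 20590 to 30710 in mutant males and 28350 to 33310 in wild-type males, and to 13110 to 30160 in mutant females and 30720 to 34980 in wild-type females. For somatotrope markers the sums were 66660 to 70080 in mutant males and 62350 to 67490 in wild-type males. In females they were 62890 to 71370 in mutants and 53660 to 61870 in wild types. The higher sums in mutants came from Dlk1, since Gh, Ghrhr, Ghsr and Neurod4 all measured lower in mutants of both sexes. Mean Dlk1 was 15.18 in mutant and 14.74 in wild-type males, and 15.14 in mutant and 14.27 in wild-type females, near the top of the signal range. Gonadotrope markers summed to 8315 to 12020 in mutant males and 18240 to 25500 in wild-type males, and to 6406 to 8939 in mutant females and 8006 to 11450 in wild-type females. Their part in the results was not tested, and in whole tissue a change in the number of cells of a type and a change in RNA per cell cannot be told apart.

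**Figure D2:**
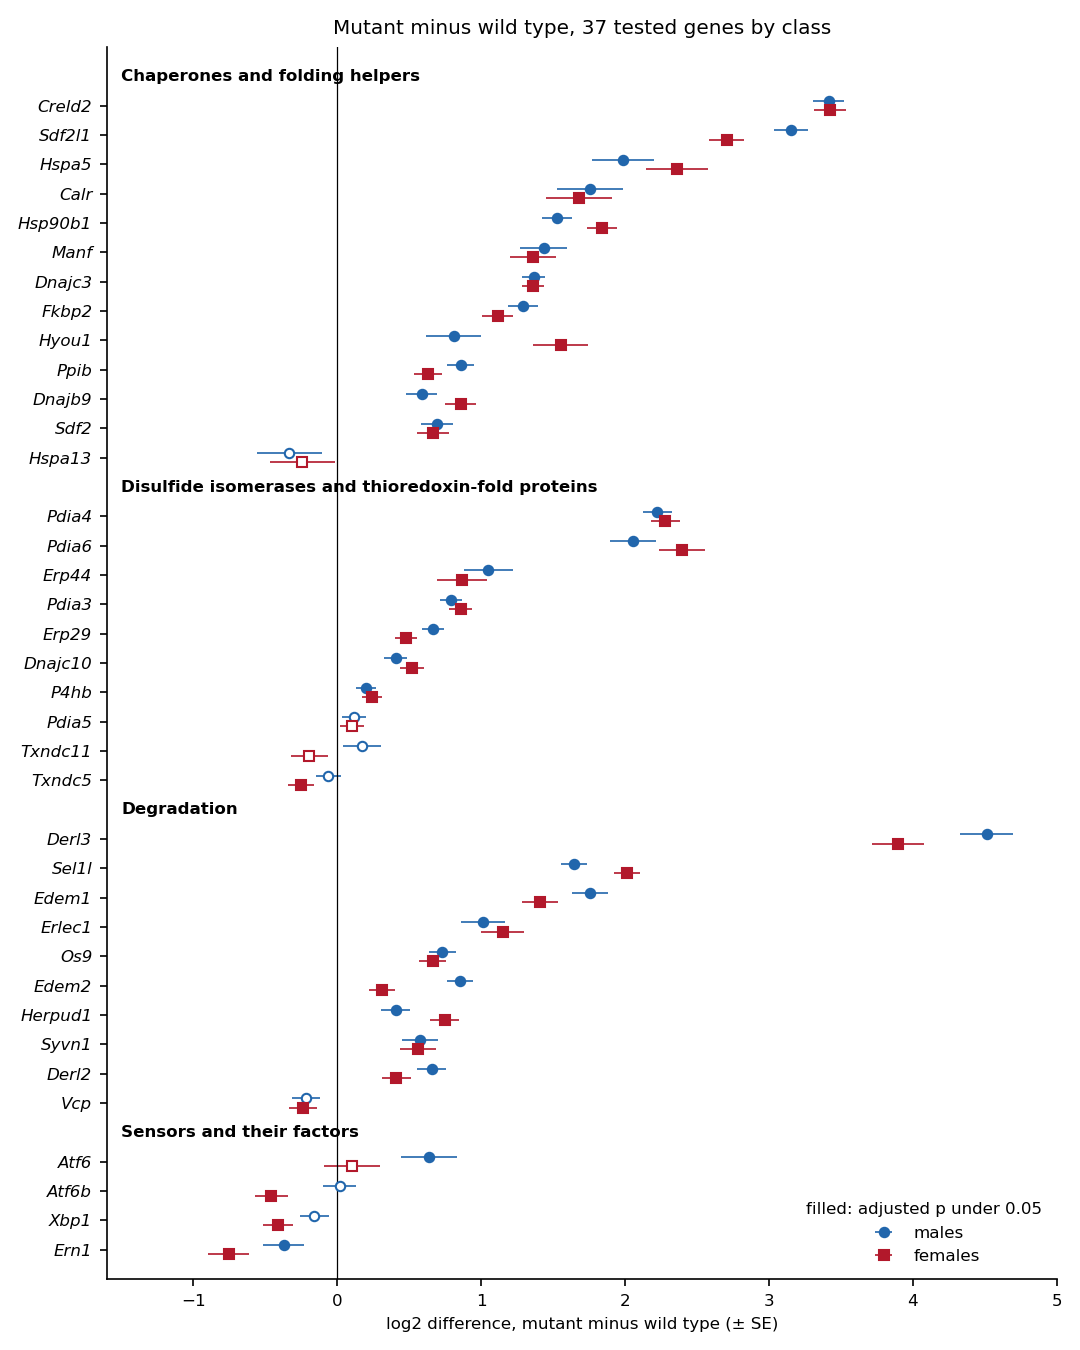
Log2 difference, mutant minus wild type, ± its standard error (x axis) for the 37 tested members by class, in males and females. Filled symbols passed an adjusted p of 0.05. Chaperones and ERAD genes lie mostly right of 0, up to 3.43 for Creld2 in females among genes detected on all arrays. Derl3 is plotted at its fitted difference, although no wild-type male array detected it, and 3 of the 4 sensors lie left of 0 in females, down to -0.75 for Ern1.

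Among the chaperones, 12 of 13 tested genes were higher in each sex, with medians of 1.37 in males and 1.36 in females, and in all 12 no mutant array overlapped a wild-type array of the same sex. Among the 11 detected on all 24 arrays, which leaves out Manf and Hspa13, 11 were higher without overlap in each sex. Over all genes, 15.2% were higher with no overlap in males and 12.1% in females. Creld2, a resident protein with EGF-like repeats, had the largest difference of the class. Its lowest, median and highest log2 intensities were 13.44, 13.52 and 13.70 in mutant males and 9.91, 10.11 and 10.32 in wild-type males. In females they were 13.46, 13.78 and 14.15 in mutants and 10.13, 10.32 and 10.74 in wild types. Every mutant array thus lay far above every wild-type array, and the differences of 3.42 ± 0.11 in males (10.7-fold, adjusted p = 7.2e-19) and 3.43 ± 0.11 in females (10.7-fold, adjusted p = 6.2e-19) were 0.01 ± 0.15 apart. A further probe of Creld2 gave 3.33 in males and 3.29 in females.

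Sdf2l1, a partner of Hspa5 in a chaperone complex, measured 12.92, 13.17 and 13.55 (lowest, median, highest) in mutant males and 9.82, 10.03 and 10.28 in wild-type males. Mutant females measured 13.05, 13.24 and 13.53 and wild-type females 10.30, 10.44 and 10.99. The groups did not overlap in either sex, and the gene was 8.90-fold higher in males and 6.54-fold in females (adjusted p = 4.2e-17 and 7.6e-16). Its paralog Sdf2 rose by 0.69 ± 0.11 in males and 0.67 ± 0.11 in females on the log2 scale (adjusted p = 7.4e-06 and 1.5e-05). The difference between the paralogs was not tested.

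Hspa5, the HSP70 chaperone BiP that binds unfolded chains and holds the sensors inactive, had lowest, median and highest values of 8.43, 8.73 and 9.30 in mutant males and 6.40, 6.74 and 7.18 in wild-type males. In females they were 8.42, 9.31 and 10.16 in mutants and 6.65, 6.90 and 7.28 in wild types. The mutant females were the most scattered, yet their lowest array exceeded every wild-type array. Hspa5 was thus 3.96-fold higher in mutant males (1.99 ± 0.22, adjusted p = 2.5e-08) and, in mutant females, 5.14-fold higher (2.36 ± 0.22, adjusted p = 1.4e-09). Hsp90b1, the HSP90 chaperone of the same compartment, ranged from 14.40 to 14.75 in mutant males and from 12.74 to 13.27 in wild-type males, and from 14.47 to 14.92 in mutant females and from 12.73 to 13.20 in wild-type females. It was 2.88-fold higher in males and 3.59-fold in females (adjusted p = 4.0e-12 and 9.6e-14), with mutant arrays near the top of the signal range of 15.20, where folds can be compressed.

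Hyou1, a large HSP70 relative that exchanges nucleotide on Hspa5, was 1.75-fold higher in males and 2.94-fold in females (adjusted p = 0.00093 and 2.2e-07). The 2 sex effects differed by 0.74 ± 0.27 on the log2 scale, which missed the threshold (adjusted p = 0.066). Hsp40 co-chaperones of Hspa5 rose as well, Dnajc3 by 2.58-fold in males and 2.57-fold in females (adjusted p = 1.5e-13 and 1.9e-13) and Dnajb9 by 0.59 and 0.86 on the log2 scale (adjusted p = 6.0e-05 and 3.1e-07). Dnajb11, another such co-chaperone, had no annotated probe.

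Calr, the lectin calreticulin, measured 12.13, 12.99 and 13.14 in mutant males and 10.67, 11.05 and 11.68 in wild-type males, and 12.74, 13.10 and 13.47 in mutant females and 10.71, 11.40 and 12.32 in wild-type females. It was 3.38-fold higher in males and 3.21-fold in females (adjusted p = 4.8e-07 and 1.2e-06). Canx, its membrane-bound counterpart calnexin, and Uggt1, which re-tags misfolded glycoproteins for another round with these lectins, were not detected on any array with their probes, so nothing can be said of them here. The prolyl isomerases Fkbp2 and Ppib were 2.45-fold and 1.81-fold higher in males and 2.17-fold and 1.55-fold in females. Manf, a secreted partner of Hspa5, was detected on all 12 mutant arrays, on 0 of 6 wild-type male arrays and on 2 of 6 wild-type female arrays. It was at least 1.715-fold higher in males and at least 2.21-fold in females (adjusted p = 4.3e-08 and 1.2e-07). Hspa13 was the exception of the class, detected on 7 arrays and not called in either sex (-0.33, adjusted p = 0.22 in males, -0.24, adjusted p = 0.40 in females). In the arrays of higher background Hspa13 was called lower in males (-0.89, adjusted p = 0.033). Of all male arrays, 1 of 6 mutant and 2 of 6 wild-type arrays detected it.

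**Figure D3:**
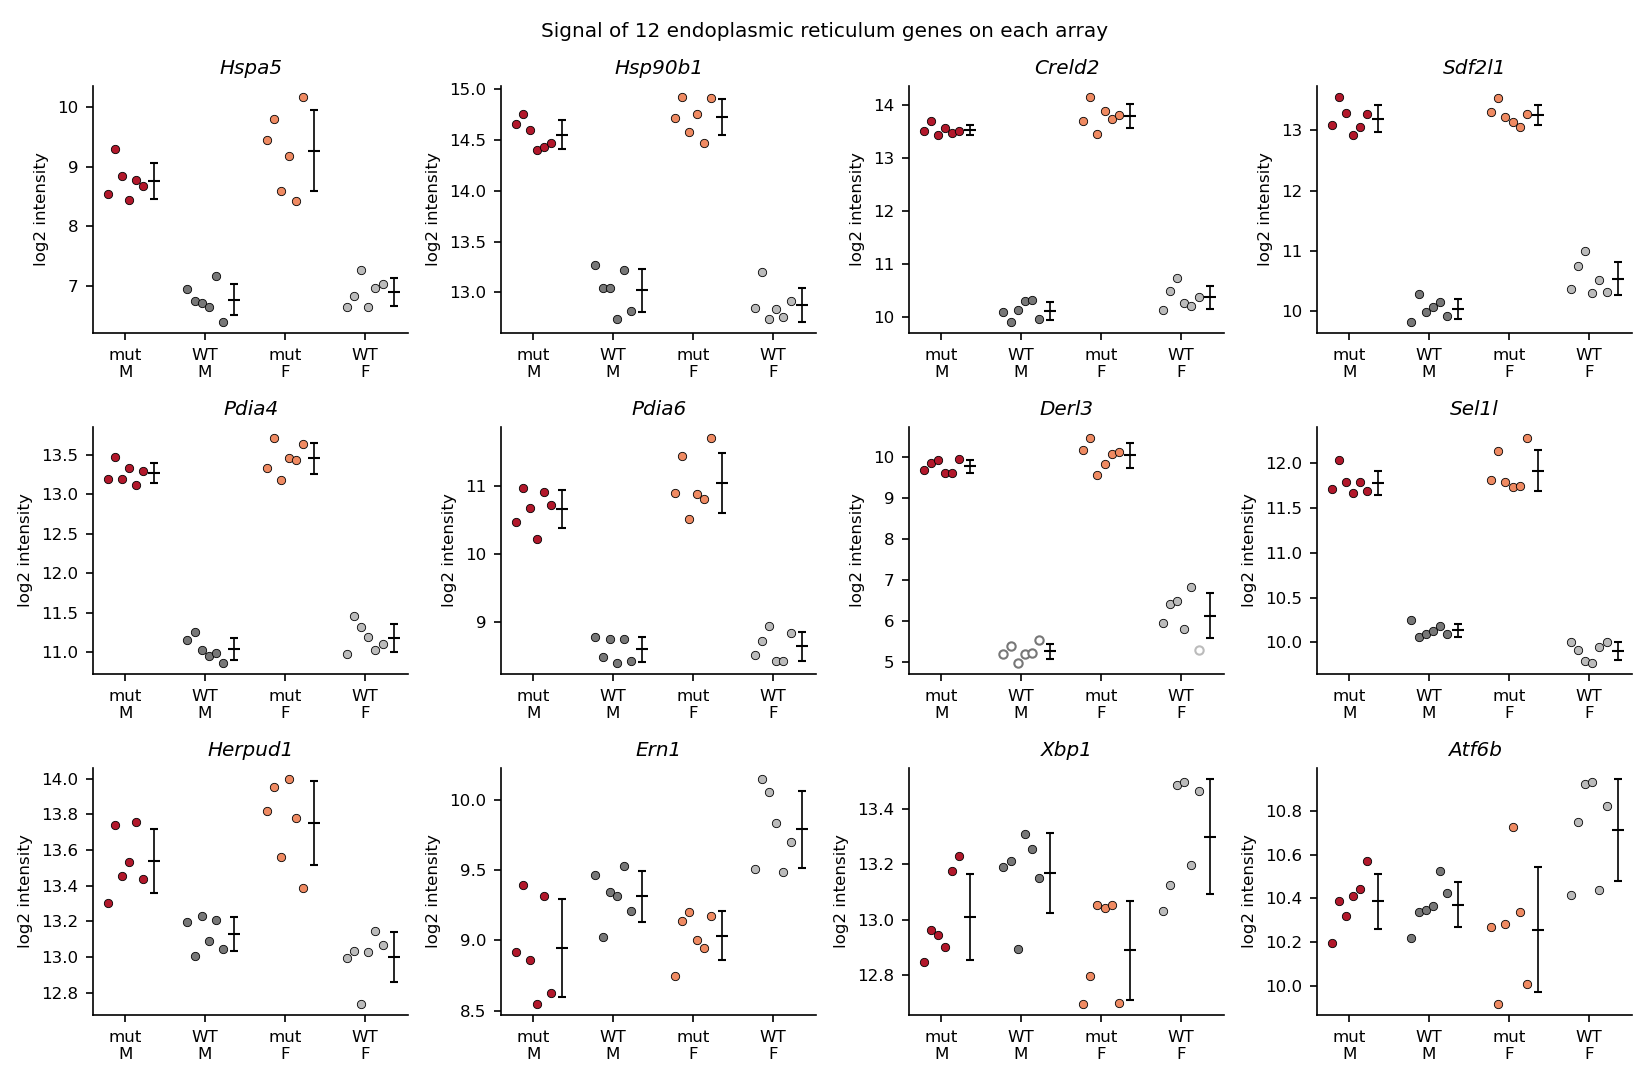
Log2 intensity (y axis) of 12 member genes on each of the 24 arrays, 1 point per array, in mutant males, wild-type males, mutant females and wild-type females, with the group mean ± SD beside the points and hollow points for arrays where the probe was not detected. In Creld2 and Sdf2l1 the genotype means differ by 2.71 to 3.43 log2 units, the wild-type male points of Derl3 are all hollow, and the groups overlap for Xbp1 and Atf6b.

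Among the disulfide isomerases, Pdia4 and Pdia6 were over 4-fold higher in both sexes, and the rises of the rest were smaller. In each sex 7 of 10 were higher, and 1 was lower in females, with medians of 0.53 and 0.50. Among the 9 detected on all 24 arrays, which leaves out Erp44, 6 were higher in each sex. Pdia4, an isomerase with several thioredoxin-like domains, measured 13.11, 13.24 and 13.47 in mutant males and 10.86, 11.01 and 11.26 in wild-type males. Mutant females measured 13.18, 13.45 and 13.71 and wild-type females 10.98, 11.15 and 11.46. Mutants lay above wild types without overlap, at 4.68-fold in males and 4.86-fold in females (adjusted p = 7.2e-16 and 4.7e-16).

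Pdia6, an isomerase found with Hspa5 that also attenuates Ern1 signalling, ranged from 10.21 to 10.97 in mutant males and from 8.40 to 8.78 in wild-type males, and from 10.52 to 11.70 in mutant females and from 8.42 to 8.93 in wild-type females. It was 4.17-fold higher in males and 5.26-fold in females (adjusted p = 5.4e-11 and 3.1e-12). A second probe of Pdia6 gave smaller differences of 0.92 in males and 1.44 in females. Pdia3, the isomerase that works with calreticulin and calnexin on glycoproteins, was 1.73-fold and 1.81-fold higher (adjusted p = 5.2e-09 and 1.4e-09). P4hb, the founding protein disulfide isomerase, rose by 1.15-fold in males and 1.19-fold in females (adjusted p = 0.018 and 0.0047). These small rises of P4hb were not called in the arrays of lower or of higher background (adjusted p = 0.11 to 0.25, 3 arrays a group).

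Erp29, a chaperone-like relative without isomerase activity, was 1.58-fold higher in males and 1.39-fold in females (adjusted p = 6.2e-08 and 1.1e-05), and Dnajc10, the reductase ERdj5 that opens disulfides before degradation, 1.32-fold and 1.44-fold (adjusted p = 0.00016 and 7.7e-06). Erp44, which retrieves proteins from the early Golgi, was undetected on 6 wild-type male and 3 wild-type female arrays, and was at least 1.68-fold higher in males and at least 1.71-fold in females (adjusted p = 1.4e-05 and 0.00018). Pdia5 was not called (0.12, adjusted p = 0.23 in males and 0.10, adjusted p = 0.32 in females), although its other 2 kept probes were higher in males by 0.39 and 0.68 (adjusted p = 0.0010 and 0.00028 over all kept probes). Txndc11 measured 0.17 in males and -0.19 in females and was not called. One of its other 3 kept probes was higher in males (0.40, adjusted p = 0.026 over all kept probes), and the probes differed in sign in both sexes. Txndc5 was lower in mutant females (-0.25 ± 0.09, adjusted p = 0.021), with overlapping groups, and measured -0.06 in males (adjusted p = 0.58). That call was lost when only the female arrays were fitted (adjusted p = 0.050) and with 75th percentile scaling (adjusted p = 0.072).

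ERAD genes were higher for 9 of 10 tested members in each sex, with medians of 0.79 in males and 0.71 in females. Among the 9 detected on all 24 arrays, which leaves out Derl3, 8 were higher in each sex. Derl3, a derlin of the retrotranslocation channel, had the largest difference of all members. It measured 9.61, 9.78 and 9.95 in mutant males and 4.99, 5.23 and 5.54 in wild-type males, where no array detected it. In females the values were 9.57, 10.10 and 10.46 in mutants and 5.30, 6.20 and 6.85 in wild types, of which 5 of 6 arrays detected it. Every mutant array lay more than 2 log2 units above every wild-type array of its sex. Derl3 was at least 17.8-fold higher in males (adjusted p = 1.0e-16) and at least 14.7-fold in females (adjusted p = 2.0e-15). The difference was called in both sexes in the arrays of lower background and in those of higher background.

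Derl3 is also made by plasma cells. Of 12 plasma and B cell markers, 9 had a probe and 3 passed the filter, with 0 higher and 2 lower in each sex. The lower ones were Cd79b (-2.23 in males and -1.55 in females) and Sdc1 (-0.48 and -0.49). Mzb1 was not called (0.23 in males and -0.02 in females). It was detected on 6 of 6 mutant male, 1 of 6 wild-type male, 6 of 6 mutant female and 4 of 6 wild-type female arrays. The part of plasma cells in the Derl3 difference was not tested. Jchain, Tnfrsf17, Pou2af1, Ms4a1, Irf4 and Prdm1 fell under the filter, and the summed linear intensity of the tested markers was 145.4 to 172.9 in mutant males and 278.3 to 491.2 in wild-type males, and 135.8 to 154.5 in mutant females and 223.9 to 295.8 in wild-type females. Derl2, a widely expressed derlin, rose by 1.58-fold in males and 1.33-fold in females (adjusted p = 4.2e-06 and 0.0013). Both probes of Derl1 were undetected on all arrays.

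Sel1l, the adaptor that hands clients to the ubiquitin ligase Syvn1, measured 11.67, 11.75 and 12.04 in mutant males and 10.06, 10.11 and 10.25 in wild-type males, and 11.74, 11.80 and 12.28 in mutant females and 9.77, 9.93 and 10.00 in wild-type females. It was 3.13-fold higher in males and 4.04-fold in females (adjusted p = 6.1e-14 and 1.1e-15), and its 3 other kept probes were higher in both sexes. The 2 sex effects of Sel1l differed by 0.37 ± 0.13 on the log2 scale, which narrowly missed the threshold (adjusted p = 0.059). That difference passed with the authors' table and with normexp without controls (adjusted p = 0.046 and 0.047). Syvn1 itself, the ligase HRD1, rose less, by 1.49-fold in males and 1.48-fold in females (adjusted p = 0.00038 and 0.00051). Herpud1, which organises that ligase complex, was 1.33-fold higher in males and 1.68-fold in females (adjusted p = 0.0015 and 9.8e-07), both without overlap. The lectins that present glycoproteins to the ligase also rose, Os9 by 1.66-fold and 1.58-fold and Erlec1 by 2.02-fold and 2.22-fold in males and females.

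The mannosidase-like genes that mark glycoproteins for disposal rose unequally. Edem1 ranged from 7.78 to 8.27 in mutant males and from 6.06 to 6.35 in wild-type males, and from 7.47 to 8.26 in mutant females and from 6.19 to 6.78 in wild-type females. It was 3.38-fold higher in males and 2.66-fold in females (adjusted p = 7.6e-12 and 5.6e-10), and 2 further probes of Edem1 were undetected throughout. Edem3 was undetected. Vcp, the ATPase that pulls substrates into the cytosol, was the member of the class that was not higher. It was lower in mutant females (-0.23 ± 0.10, adjusted p = 0.046) and measured -0.22 ± 0.10 in males (adjusted p = 0.063). The female call was lost under no filter (adjusted p = 0.050), with 75th percentile scaling (adjusted p = 0.21) and with only the female arrays (adjusted p = 0.069). In males it was called lower with the authors' table, with normexp without controls and with background as a block (adjusted p = 0.046, 0.048 and 0.044), and with 75th percentile scaling it measured 0.0963 (adjusted p = 0.34).

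With the probe used for each gene, Edem2 was the one member whose genotype effect differed between the sexes at the threshold, where 13.6% of all tested genes did. Another kept probe of Pdia6 (0.51, adjusted p = 0.027) and one of Dnajc10 (-0.44, adjusted p = 0.029) also passed, over all kept probes. Edem2 measured 12.22, 12.35 and 12.40 in mutant males and 11.35, 11.43 and 11.74 in wild-type males, and 12.16, 12.23 and 12.38 in mutant females and 11.54, 11.97 and 12.20 in wild-type females. By median the wild-type females stood between the wild-type males and both mutant groups, and they overlapped the mutant females. The gene was 1.81-fold higher in mutant males (0.86 ± 0.09, adjusted p = 1.4e-08) and, in mutant females, 1.24-fold higher (0.31 ± 0.09, adjusted p = 0.0058), a difference of -0.54 ± 0.13 (female minus male, adjusted p = 0.0059). The other 3 kept probes were higher by 1.42, 1.45 and 0.64 in males and by 0.64, 0.58 and 0.14 in females, the last not called (adjusted p = 0.43). They gave differences between the sexes of -0.79, -0.87 and -0.51 (adjusted p = 0.013, 0.0073 and 0.071). Within the arrays of lower and of higher background the value was -0.53 and -0.56, and neither was called with 3 arrays a group (adjusted p = 0.27 and 0.11). The female effect of Edem2 was 0.36 and 0.27 in these arrays and was not called either (adjusted p = 0.094 and 0.12). At an unadjusted p under 0.05, 8 of the 37 members (21.6%) differed between the sexes in genotype effect, against 29.7% of all tested genes.

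**Figure D4:**
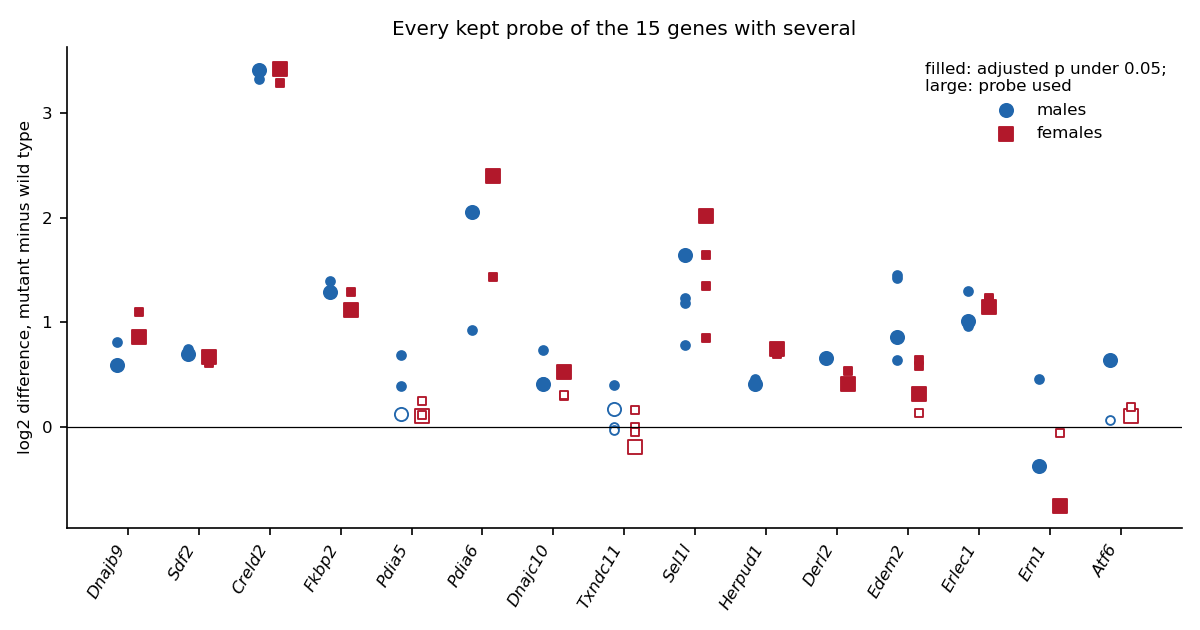
Log2 difference, mutant minus wild type (y axis), of every kept probe of the 15 members with several kept probes, in males and females. Large symbols are the probe used for the gene, small ones its other probes, and filled symbols passed an adjusted p of 0.05. The probes had the same sign for 13 genes in males and 14 in females, and Ern1 is the one gene with probes called in opposite directions, in males.

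Of the 4 sensors and effectors, 1 was higher and 1 lower in males, with a median of -0.07. Among the 3 detected on all 24 arrays, which leaves out Atf6, 0 were higher and 1 was lower in males. In females 3 were lower and Atf6 was not called, with a median of -0.43. Ern1, which encodes the sensor IRE1 that splices Xbp1 mRNA, measured 8.55, 8.89 and 9.39 in mutant males and 9.02, 9.33 and 9.53 in wild-type males, and 8.75, 9.07 and 9.20 in mutant females and 9.48, 9.77 and 10.14 in wild-type females. The male groups overlapped and the female groups did not, where 11.5% of all genes were lower with no overlap in females and 15.6% in males. The difference was -0.37 ± 0.14 in males (adjusted p = 0.029) and -0.75 ± 0.14 in females (adjusted p = 7.9e-05). A dimmer second probe of Ern1 ran against this, at 0.45 in males (adjusted p = 0.017) and -0.06 in females (adjusted p = 0.78), so the direction in males depends on the probe. The male call was also lost with 75th percentile scaling (adjusted p = 0.071).

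Xbp1, the transcription factor made active by that splicing, ranged from 12.85 to 13.23 in mutant males and from 12.89 to 13.31 in wild-type males, and from 12.70 to 13.05 in mutant females and from 13.03 to 13.50 in wild-type females. It was lower in mutant females (-0.41 ± 0.10, adjusted p = 0.0017) and measured -0.16 ± 0.10 in males (adjusted p = 0.20). Its single probe gives 1 level for the gene, and splicing was not analysed here. Atf6b, the relative of Atf6, was lower in mutant females (-0.46 ± 0.12, adjusted p = 0.0019) and measured 0.02 ± 0.12 in males (adjusted p = 0.91), a difference between the sexes of -0.48 that narrowly missed the threshold (adjusted p = 0.053). That difference passed under 6 alternatives, among them the authors' table, raw background as a covariate and background as a block (adjusted p = 0.043, 0.043 and 0.042). Atf6, the sensor cut in the Golgi to free a transcription factor, was detected on 5 of 6 mutant male arrays and 0 of 6 wild-type male arrays, and was at least 1.17-fold higher in males (adjusted p = 0.0078). In females it measured 0.10 ± 0.19 (adjusted p = 0.69). A second kept probe of Atf6 gave 0.07 in males (adjusted p = 0.73), and with 75th percentile scaling the male call was lost (adjusted p = 0.097).

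Wild-type females stood above wild-type males for some members. Of the 37, 11 were higher in wild-type females (limma), where 12.5% of all tested genes were higher and 14.8% lower. At an unadjusted p under 0.05, 16 members (43.2%) differed, against 38.3% of all genes. Derl3, detected on 5 of 6 wild-type female and 0 of 6 wild-type male arrays, was at least 1.43-fold higher in wild-type females (adjusted p = 0.00079). The others were Sdf2l1 (0.50), Edem2 (0.47), Ern1 (0.47), Atf6b (0.34), Edem1 (0.34), Ppib (0.32), Erp29 (0.29), Fkbp2 (0.28, adjusted p = 0.049), Derl2 (0.27) and Dnajc3 (0.23), all as log2 differences, female minus male. The count fell to 6 without wild-type female 3 or wild-type male 1, and to 7 without wild-type female 4. It was 5 in the arrays of lower background and 1 in those of higher background, where the shares of all genes are not given. Wild-type females also had more probes detected than wild-type males, with the ranges given above, and the part of this in the differences was not tested. Between mutant females and mutant males, limma called 0 of the 37 members and 0.0665% of all tested genes, and at an unadjusted p under 0.05 these were 6 members (16.2%) and 6.22% of all genes.

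Set beside the motifs, the 9 tested members with ERSE or ERSE-II were all higher in both sexes, with medians of 1.76 in males and 1.84 in females. The 22 tested members in the promoter table with neither motif had medians of 0.68 and 0.58 and included Sdf2l1, Pdia4 and Sel1l. They also included Vcp, Txndc5 and Txndc11, which held UPRE. With the probe used, these measured -0.22, -0.06 and 0.17 in males and -0.23, -0.25 and -0.19 in females, and were not called higher in either sex. Among the 13 other tested genes with ERSE or ERSE-II, 5 were higher and 3 lower in males, and 4 higher and 3 lower in females, with medians of 0.14 and 0.07. These are descriptions with no test.

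Other lists of the secretory pathway, and 1 of chaperones outside it, were counted in the same way. Each is to be read beside the shares of all tested genes. These were 25.0% higher and 26.5% lower in males, and 22.8% higher and 25.5% lower in females. Other folding genes of the compartment had 16 of 27 tested genes higher and 2 lower in males, and 17 higher and 3 lower in females (medians 0.39 and 0.42). They included Fkbp7 (3.24-fold in males, 4.02-fold in females) and Fkbp14 (2.04-fold and 2.98-fold), which are prolyl isomerases, and Tmx1 (3.92-fold and 3.04-fold), a membrane-bound thioredoxin. Clgn, the calnexin relative calmegin, fell by 1.02 in males and by 1.09 in females on the log2 scale, and Serp1, a translocon-associated protein, fell by 0.40 and by 0.51. Qsox1, a sulfhydryl oxidase, was lower in females (-0.56, adjusted p = 0.0019) and higher in males (0.43, adjusted p = 0.012).

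Other ERAD genes had 5 higher and 4 lower of 18 in males and 4 higher and 2 lower in females (medians 0.10 and 0.11). The higher counts were near the shares of all genes. Ubac2 rose by 1.60-fold in males and 1.61-fold in females, while Selenos and Selenok, selenoproteins of the degradation complex, rose in females (0.78 and 0.38) and measured 0.13 and 0.15 in males (adjusted p = 0.23 and 0.21). The conjugating enzyme Ube2g1 fell in both sexes (-0.40 in males and -0.29 in females), and Ube2g2 was higher in males (0.35) and lower in females (-0.26).

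Of 16 other genes of the unfolded protein response, 8 were higher and 3 lower in males and 5 higher and 3 lower in females (medians 0.31 and 0.10). Ddit3, the stress transcription factor CHOP, rose by 1.97-fold in males and 2.25-fold in females, and Creb3, a membrane-bound transcription factor, by 1.68-fold and 1.29-fold. Wfs1, a membrane protein of the compartment, rose in both sexes, by 0.29 in males (adjusted p = 0.050, just under the threshold) and 0.55 in females (adjusted p = 0.00052). Mbtps1, the protease that first cuts ATF6, fell by 0.39 in males and by 0.42 in females. Ppp1r15b, a phosphatase cofactor that restores translation, fell in females by 0.66 and measured -0.23 in males (adjusted p = 0.14). Creb3l4 fell in females by 0.54 and measured 0.38 in males (adjusted p = 0.080).

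Translocation and oligosaccharyltransferase genes had 11 higher and 4 lower of 24 in males, and 11 higher and 5 lower in females (medians 0.12 and 0.16). Sec11c, a signal peptidase subunit, rose by 3.09-fold in males and 3.16-fold in females and Rpn2, a ribophorin of the oligosaccharyltransferase, by 1.81-fold and 1.61-fold, whereas Ssr2, of the translocon-associated complex, fell by 0.99 and by 1.37 on the log2 scale. Rpn1 was higher by 1.16 in males and 1.19 in females but was detected on 0 and 1 of 6 wild-type arrays. In females Sec61b and Sec62 fell by 0.61 and by 0.55, and their male values were -0.18 and 0.06 (adjusted p = 0.16 and 0.72). Cytosolic and mitochondrial chaperones, outside the compartment, had 7 higher and 9 lower of 28 in males and 5 higher and 4 lower in females, with medians of 0.02 and 0.01. Hspa1a, an inducible cytosolic HSP70, was higher in females (2.13-fold, adjusted p = 4.2e-05) and measured 0.14 in males (adjusted p = 0.57). Hspa4l rose in females by 0.66 and measured -0.15 in males (adjusted p = 0.44), and Dnajb6 rose in both sexes, by 0.51 in males and 0.29 in females. Bag3, a co-chaperone of HSP70, Hspb1, a small heat shock protein, and Cct6a, a chaperonin subunit, fell in both sexes, by 0.98, by 0.54 and by 0.37 in males and by 0.62, by 0.72 and by 0.26 in females.

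**Figure D5:**
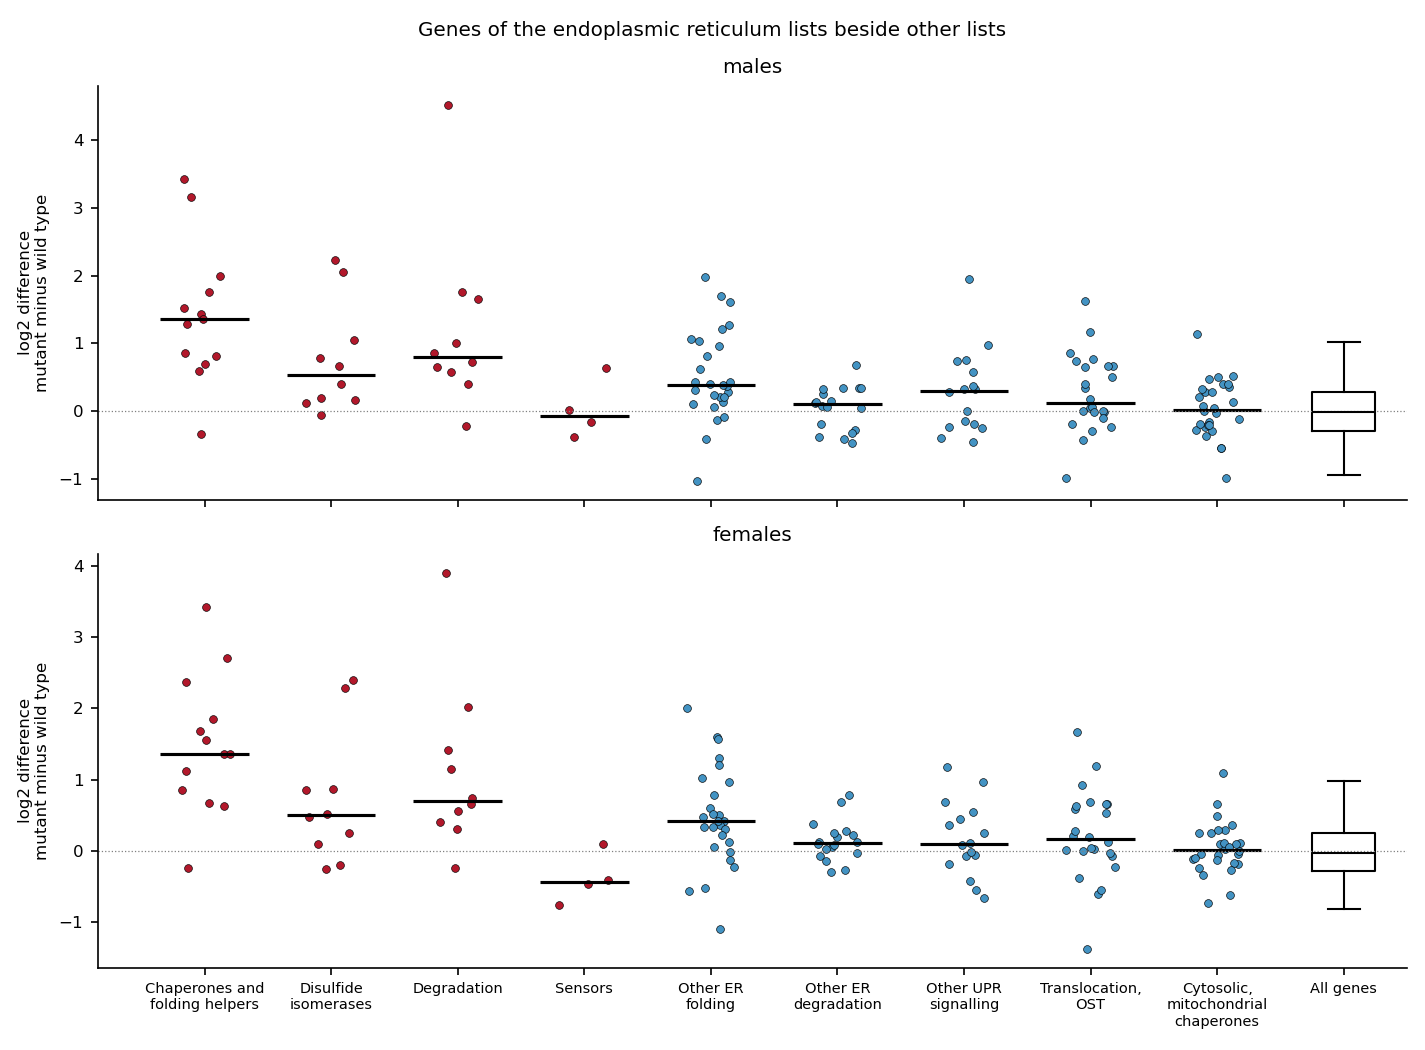
Log2 difference, mutant minus wild type (y axis), of each tested gene in the 4 member classes and the 5 other lists, in males and females, with the list median as a line. Red points are members, blue points the other lists, and the box plot shows all tested genes (line at the median, whiskers to the 5th and 95th percentiles). Chaperones have the highest medians (1.37 and 1.36), and the cytosolic and mitochondrial chaperones lie around 0 (0.02 and 0.01).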

How the data were processed

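Per the file headers, the deposited table gives a linear intensity averaged over beads for 45281 probes and 24 arrays. Beside it stand a deposited detection p-value and a deposited bead count per probe. The submitters' processing notes name GenomeStudio 2011.1. The 24 deposited columns of bead standard errors were not used. A second deposited table of the authors' processed intensity served as an alternative; how it was normalized was not stated in the labels.

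Background correction and quantile normalization used neqc of limma 3.58.1 in R 4.3.3 (offset 16), with negative controls estimated from the detection p-values. Probes with a detection p under 0.05 on at least 6 arrays were kept (23133 probes). Gene names came from the platform annotation, which gave 34885 probes 1 symbol, 18 several and 10378 none, and 34807 matched RefSeq. The kept probe with the highest mean stood for its gene, giving 12027 genes. A linear model (lmFit, eBayes) with 4 group means gave mutant minus wild type in each sex, the difference between these 2 effects (female minus male), and the sex difference within each genotype. Calls were made where the p-value, adjusted by Benjamini-Hochberg across the tested genes, was under 0.05. The script was tested on simulated data. Adjusted p-values of single further probes are over all kept probes.

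Differences are given ± standard error, with folds as powers of the log2 difference. Where the dimmer group has arrays that did not detect the gene, "at least N-fold" sets the brighter group's mean against, on each dim array, the higher of the gene's signal and the lowest signal of a detected probe (wild-type males 5.52 to 5.79, wild-type females 5.32 to 5.46). The median number of beads per probe was 42 to 44, and the number of arrays limits the precision (median standard error 0.117). Wild types were littermates of the mutants, but no label ties animals to litters, so litter could not be included in the model. The p-values measure the spread between animals taken as independent.

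All members are named whatever their values. Of each pathway list, up to 3 genes in each direction with the smallest adjusted p in females are named. The members and lists were chosen with earlier results of these data known. Alternatives were 75th percentile scaling, the authors' table, normexp without controls, other filters, the mean of a gene's probes, single probes, only the groups compared, raw background as a covariate, and each array left out. The split of arrays by background was added after seeing the data. RefSeq promoters were scanned with Python 3.11.15.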

Additional observations from a re-analysis of the deposited data

Results flagged for a closer look

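Values on 1 array that stood far from the other 5 of their group were found in 7 of the 148 groups of 6 arrays checked, where chance gives about 1 in 20 groups. Calr measured 12.13 in mutant male 5, with the nearest array at 12.85, and Sel1l 12.04 in mutant male 2, with the nearest at 11.79. Among wild-type males, Dnajb9 measured 11.68 in animal 6 (nearest 12.04), P4hb 13.79 in animal 2 (nearest 13.71) and Edem2 11.74 in animal 5 (nearest 11.49). Among wild-type females, Fkbp2 measured 11.56 in animal 6 (nearest 12.01) and Herpud1 12.74 in animal 3 (nearest 13.00). All 7 were detected signals.

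The genotype effect of Edem2 differed between the sexes by the test of the difference itself, at -0.54 on the log2 scale, female minus male (limma, adjusted p = 0.0059).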

How the results depend on the processing

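Over the planned and added alternatives, 26 to 31 members were called in males and 26 to 33 in females, all within 1.5 times the counts of 30 and 33. Leaving out each of the 24 arrays gave 29 to 31 in males, 31 to 33 in females, 1 to 4 for the difference of the genotype effect between the sexes, 6 to 11 for female against male wild types and 0 for mutants. The difference between the sexes, called for 1 member, was called for 4 with 75th percentile scaling, 3 with the authors' table, 3 with normexp without controls, and 2 with the mean of kept probes, with raw background as a covariate and with background (lower or higher) as a block. It was called for 0 within the 12 arrays of lower background and 0 within the 12 of higher background, where fewer arrays were fitted. The highest leave-one-out count, 4, came without mutant female 4, and 3 without mutant female 3. Between wild-type sexes the count of 11 became 5 in the arrays of lower background and 1 in those of higher background. The shares of all genes called under the alternatives are not given. Signs turned for Ern1 in males, to 0.0416 with the mean of kept probes and 0.45 with its other probe, and for Dnajc10, whose difference between the sexes was -0.44 with another probe. They also turned for values that were not called, in males with 75th percentile scaling for Vcp (0.0963), Xbp1 (0.1444) and Txndc5 (0.114), in females for Atf6 (-0.0938), and in males of lower background for Hspa13 (0.2322), Txndc5 (0.1008) and Atf6b (near 0), and between probes of Txndc11. The cause was not tested. With 3 arrays a group, the calls of Hyou1, Dnajc10 and Herpud1 in males and of Erp44, Syvn1, Derl2, Xbp1 and Atf6b in females were lost in the arrays of lower or of higher background (adjusted p = 0.054 to 0.13). The male calls of Ern1 and Atf6 were also lost in the arrays of lower background (adjusted p = 0.43 and 0.16). Lost in both the lower and the higher arrays were the female calls of Edem2 (adjusted p = 0.094 and 0.12), Txndc5 (0.14 and 0.17) and Vcp (0.28 and 0.135). The calls of P4hb were lost there in both sexes (0.11 to 0.25). Of the called members, 24 of 30 in males and 24 of 33 in females were called under every alternative other than single probes and left-out arrays. No paired analysis was possible because the labels give each animal its own number. Slide as a block was not run, since the headers name no slide. Folds near the top of the signal range, and of genes near background, are limited by the array.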
